A study of Mus musculus with 6 samples.

Results

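Tight junctions and desmosomes are 2 of the protein assemblies that hold neighbouring epithelial cells together, and this report describes the mRNA levels of their genes with and without USAG-1 overexpression in the human line HK-2, immortalized cells of the kidney proximal tubule. The genes were taken by symbol, at a time when earlier results of these data were known: the claudins, TJP1, TJP3, OCLN, MARVELD2, MARVELD3, F11R, CGN, CGNL1, PATJ and PALS1 for the tight junction, and DSG1 to DSG4, DSC1 to DSC3, PKP1 to PKP4, DSP and JUP for the desmosome. The deposited table held 42 of them among its 39234 genes. The series has 6 libraries in 2 groups. The 3 control and the 3 USAG-1-overexpressing cultures carry the same labelled genotype, WT, and the study describes overexpression in cells as transient transfection of an expression plasmid. The sample labels do not say what the control cultures received, nor whether the cultures were independent, so p-values measure the spread between these libraries, which may be technical. The study states that the identity of the HK-2 cells was not checked by STR typing. Mouse is given as the organism in the labels, but HK-2 is a human line and the table's identifiers are those of human genes.

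In a tight junction, claudins polymerize into strands that seal the space between cells and form charge-selective pores, and the claudins that a nephron segment makes set which ions cross between its cells. Occludin, tricellulin (MARVELD2) and MARVELD3 lie in the same strands, and the cytoplasmic ZO proteins (TJP1 and TJP3 among them), cingulin and the Crumbs complex proteins PALS1 and PATJ join the strands to actin and to apical polarity. In a desmosome, desmogleins and desmocollins bind across the gap between cells, and plakoglobin (JUP), plakophilins and desmoplakin (DSP) couple them to intermediate filaments. The kidney's proximal tubule is known as a leaky epithelium whose tight junctions carry the cation and water pore claudin-2.

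The libraries held 41236194 to 48699471 counts, and 18188 genes passed edgeR's filter on low counts. Levels are given in CPM, counts scaled to library size with edgeR's TMM factors. They are not divided by transcript length, so the levels of different genes were not compared. SOSTDC1, which encodes USAG-1, was counted 79, 80 and 60 times in control and 5072, 3907 and 4438 times in USAG-1 libraries (log2 fold change 5.94), so every library went with its label. Control replicate 3 stood apart: its counts differed from those of the other controls by a chi-square per degree of freedom of 42.3 and 42.7, against 6.52 between replicates 1 and 2, and it scored -54.3 on a second principal component where those scored 28.2 and 25.2. Results of single junction genes are therefore also given without it where they change. Of the proximal tubule markers, PAX8 (375 ± 8.57 CPM in control cells, SD, n = 3), GGT1 (104 ± 17.0 CPM) and CDH6 (207 ± 33.4 CPM) were present, whereas LRP2 had 0 counts in every library and CUBN and AQP1 had 15 counts or fewer in any. With USAG-1 overexpression PAX8 (log2 fold change 0.26) and GGT1 (0.55) rose and CDH6 (-0.46) fell, and the other 3 tested of that list, SLC34A1, SLC5A2 and ANPEP, were not called. The unnamed gene ENSG00000286070 shares 34177 bases with GGT1 on the same strand. It had 17, 43 and 2042 counts in control and 9, 1382 and 6 in USAG-1 libraries, and whether reads were split between it and GGT1 was not tested. Among 5 tested epithelial markers (EPCAM and the keratins KRT7, KRT8, KRT18 and KRT19), 0 were called, with a lowest adjusted p of 0.102 by edgeR and 2 unadjusted p-values under 0.05. Summed with E-cadherin (CDH1), they stood at 1438, 1435 and 1877 CPM in control and 1661, 1760 and 1723 CPM in USAG-1 libraries. Control replicate 3 thus lay above all USAG-1 libraries and the other controls below them. The absence of calls may depend on that library. Without it, 10 genes of the desmosome partner list below were called, and that list includes these keratins. It held 10 tested genes with all libraries. The fit without control replicate 3 is not given for each marker. All 10 T cell markers on a typed list fell with USAG-1 overexpression. Summed, they were at 67.4 to 80.1 CPM in control and 7.96 to 10.5 CPM in USAG-1 libraries, and their part in the results below was not tested. Of 5 tested mesenchymal markers, FN1 (log2 fold change 0.36) and CDH2 (0.28) rose and VIM, COL1A1 and PDGFRB were not called. The sum of that list was 14557 to 14885 CPM in control and 17722 to 18978 CPM in USAG-1 libraries, so the sum stood higher together with the junction genes. Such a sum follows the genes with the most counts. Not every gene of the list rose: of the 5 tested, 3 log2 fold changes were above 0 and 2 below, the lowest -0.39. The part of these markers in the levels of the junction genes was not tested either. Endothelial markers summed to 3.82 to 6.03 and 1.60 to 4.59 CPM and keratinocyte markers to 10.5 to 11.9 and 9.84 to 11.01 CPM in control and USAG-1 libraries, with CDH5 and KRT14 at 12 and 4 counts or fewer.

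With USAG-1 overexpression some junction genes stood higher, and claudins went in both directions. CLDN1, CLDN16, CLDN14, CGN, PALS1, DSG2, DSC2, PKP2 and JUP rose, and CLDN2 fell. Apart from CLDN14, which had few reads, CGN rose most, 2.27-fold, and the other rises lay between 1.30-fold and 1.56-fold. Of the 42 genes, 26 passed the filter on low counts, 9 of these were called higher and 1 lower, and 16 were not called. A call is an adjusted p below 0.05 in the quasi-likelihood test of edgeR, with p-values adjusted by Benjamini-Hochberg over all genes tested. Among all genes tested, 15.9% were called, 8.95% higher and 6.91% lower. Calls are more frequent in genes with more reads: at a mean of at least 5 CPM, 9 of 21 junction genes were called, against 21.4% of all genes of that level. In 14 of the 26 junction genes no control library overlapped the USAG-1 libraries, as was so for 37.6% of all genes. The median log2 fold change was 0.21 over the 26 junction genes and -0.02 over all genes, and 20 of the 26 were above 0 against 47.5% of all. Since a gene that is expressed in one group alone passes the filter through that group, these counts describe the 26 genes and are no test of the family. In RNA from whole cultures, fewer cells that express a gene and less RNA per cell cannot be told apart.

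Single libraries moved the counts. Without USAG-1 overexpression replicate 1 or without USAG-1 overexpression replicate 2, 5 junction genes were higher, namely CGN, CLDN1, CLDN16, DSG2 and PALS1, and CLDN2 was lower, while 6.92% and 5.98% of all genes were called. Without control replicate 3, 11 were higher and 1 lower, and 27.0% of all genes were called. CGN, CLDN1, CLDN16, DSG2, PALS1 and CLDN2 were called in the same direction in every one of the 16 alternatives run.

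**Figure D1:**
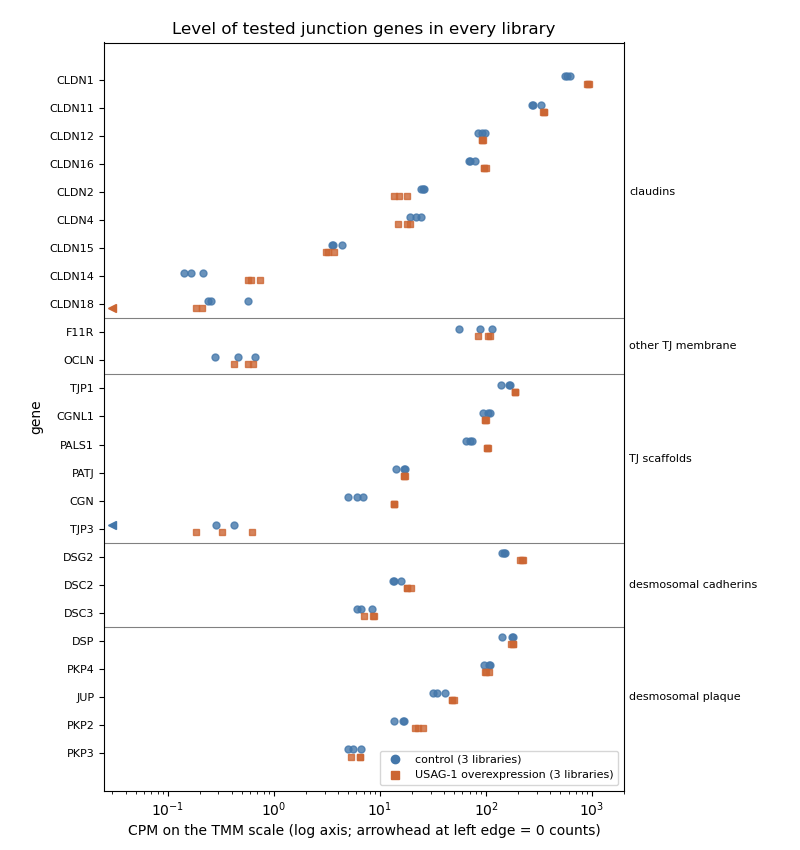
Level of 25 of the 26 tested junction genes in every library, in CPM on the TMM scale (log axis), with control libraries as circles and USAG-1 libraries as squares. An arrowhead at the left edge is a library with 0 counts. CLDN1 lies between 557 and 621 CPM in control and between 897 and 935 CPM in USAG-1 libraries, whereas CLDN14, CLDN18, OCLN and TJP3 stay below 1 CPM in all libraries.

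Of the 20 claudins in the table, 9 were tested, 3 rose and 1 fell (8.95% and 6.91% of all genes tested did), with a median log2 fold change of 0.02. CLDN1 (ENSG00000163347; chromosome 3, 190305707 to 190322446 of hg38), a sealing claudin of many epithelia, stood at 580.2, 557 and 621 CPM in the control libraries and at 897, 935 and 909 CPM in the USAG-1 libraries. All USAG-1 libraries lay above all controls, and the means of 586 ± 32.1 and 914 ± 19.3 CPM (SD, n = 3 each) gave a log2 fold change of 0.64 (SE 0.06, adjusted p = 5.64e-04). Its reads were 28.0% of all junction gene reads in control cells and 34.1% in USAG-1-overexpressing cells.

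CLDN2 (ENSG00000165376; chromosome X, 106900164 to 106930861), the pore claudin of the proximal tubule, was the single junction gene that fell. It had 24.2, 26.2 and 25.6 CPM in control and 17.9, 15.1 and 13.6 CPM in USAG-1 libraries, with no overlap, a log2 fold change of -0.71 (SE 0.11, adjusted p = 0.00488). The means were 25.3 ± 0.997 and 15.5 ± 2.17 CPM (SD, n = 3 each). MORC4, which lies across CLDN2 on the opposite strand, had 80.7 ± 8.47 and 80.7 ± 0.959 CPM. CLDN2 had 4.17, 4.69 and 4.12 counts per 100 counts of CLDN1 in the control libraries and 1.99, 1.61 and 1.49 in the USAG-1 libraries. Since CLDN2 was called lower and CLDN1 higher, this ratio describes both changes together and adds no evidence on either.

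CLDN16 (ENSG00000113946; chromosome 3, 190322541 to 190410008), known for magnesium and calcium reabsorption in the thick ascending limb, begins 94 bases from CLDN1 on the other strand, head to head. It had 70.9, 68.9 and 79.2 CPM in control and 99.7, 95.3 and 95.0 CPM in USAG-1 libraries, a log2 fold change of 0.41 (SE 0.07, adjusted p = 0.00701). Both neighbours thus rose. Per 100 counts of CLDN1 there were 12.2, 12.4 and 12.8 counts of CLDN16 in control and 11.1, 10.2 and 10.5 in USAG-1 libraries, a ratio that was lower in every USAG-1 library. CLDN14 (ENSG00000159261; chromosome 21, 36460621 to 36542600), a claudin that lowers cation passage in the thick ascending limb, had only 9, 7 and 7 counts in control and 28, 25 and 32 counts in USAG-1 libraries, or 0.174 ± 0.0378 and 0.641 ± 0.0887 CPM (SD, n = 3 each), and reached 10 counts in no control library. It had a log2 fold change of 1.87 (SE 0.43, adjusted p = 0.0229). The call was lost without control replicate 1 (log2 fold change 2.05, adjusted p = 0.0527, edgeR) or 2 (1.74, 0.0822) and without each USAG-1 replicate in turn, while the log2 fold change lay between 1.74 and 2.05 over all alternatives. The antisense gene CLDN14-AS1, with 432 counts over the 6 libraries, overlaps it and had a log2 fold change of -0.17 (adjusted p = 0.656). The unnamed genes ENSG00000230479 (421 counts) and ENSG00000279365 (189 counts) overlap it on the opposite strand too. Their log2 fold changes were 0.39 and 0.34 (adjusted p = 0.320 and 0.641, edgeR). Whether reads of these genes entered the count of CLDN14 was not tested.

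The remaining tested claudins were not called. CLDN11 (ENSG00000013297; chromosome 3, 170418868 to 170454733), the claudin of myelin and Sertoli cells, had 269.9, 277 and 326 CPM in control and 346, 352 and 351 CPM in USAG-1 libraries. Its log2 fold change of 0.27 (SE 0.08, adjusted p = 0.0524) missed the threshold although the groups did not overlap, and control replicate 3, at 326 CPM, was the control nearest to the USAG-1 libraries. Without that library the log2 fold change was 0.36 (adjusted p = 8.95e-05, edgeR). With all libraries it was also past the threshold when scaled by library sizes alone (adjusted p = 0.0161), with DESeq2 (0.0172), with limma-voom (0.0458) and with a filter of at least 10 counts in every library (0.0449). CLDN4 (ENSG00000189143; chromosome 7, 73799542 to 73832684), a chloride-selective claudin of the collecting duct, had 19.4, 22.0 and 24.6 CPM in control and 14.8, 19.3 and 18.1 CPM in USAG-1 libraries, a log2 fold change of -0.34 with a 95% interval of -0.64 to -0.05 (adjusted p = 0.112). CLDN4 was lower in every USAG-1 library than in any control, but the p missed the threshold. CLDN12, which overlaps CDK14 and GTPBP10 on the same strand, had 91.2 ± 6.17 and 92.3 ± 1.55 CPM in control and USAG-1 cells, a log2 fold change of 0.02 with an interval of -0.13 to 0.17. CLDN15, a cation pore claudin of the intestine, had 3.83 ± 0.462 and 3.35 ± 0.317 CPM and a log2 fold change of -0.19 (interval -0.58 to 0.20). CLDN18, known from stomach and lung, had 10, 28 and 11 counts in control and 0, 8 and 9 in USAG-1 libraries, and its interval of -3.53 to 0.64 spans 0. The other 11 claudins of the table, CLDN3, CLDN5, CLDN6, CLDN7, CLDN9, CLDN10, CLDN19, CLDN20, CLDN22, CLDN23 and CLDN24, did not pass the filter and had at most 24 counts in any library. Among these, CLDN10, which has a proximal tubule isoform, had 8, 12 and 8 counts in control and 1, 0 and 5 in USAG-1 libraries, and CLDN19, the partner of claudin-16, had 0 counts in all 6. A count of 0 allows up to 0.0718 CPM at these depths (3 counts in a library), counting error only.

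**Figure D2:**
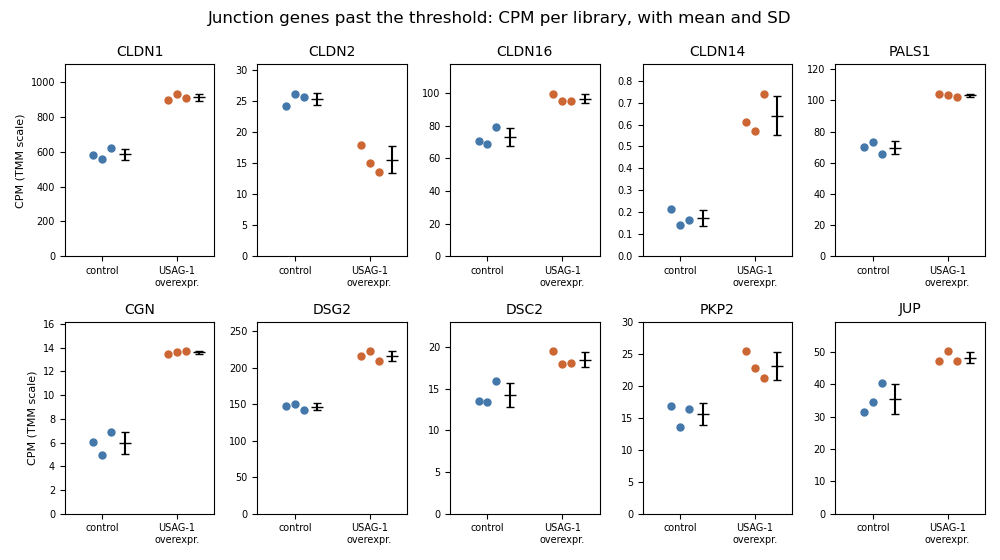
CPM on the TMM scale in each library for the 10 junction genes past the threshold, with control libraries in blue, USAG-1 libraries in orange and the mean and SD of each group in black. In every panel the groups do not overlap, CLDN2 is the one gene with lower USAG-1 libraries, and CLDN14 runs from 0.142 to 0.741 CPM.

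The other membrane proteins of the tight junction gave no call. F11R (ENSG00000158769; chromosome 1, 160995211 to 161021343), which encodes the adhesion molecule JAM-A, had 55.3, 87.7 and 114 CPM in control and 84.0, 105 and 109 CPM in USAG-1 libraries. The groups overlapped, and the log2 fold change of 0.21 (SE 0.23, 95% interval -0.32 to 0.74, adjusted p = 0.589) became -0.02 without control replicate 1 and 0.48 without control replicate 3 (adjusted p = 0.0767). The unnamed gene ENSG00000270149 shares 23387 bases with F11R on the same strand and had 1330, 14 and 45 counts in control and 632, 2 and 4 in USAG-1 libraries. The libraries with most of its counts, replicate 1 of each group, had the lowest F11R of their group. The level of F11R is therefore uncertain, and whether reads were split between these genes was not tested. OCLN (ENSG00000197822; chromosome 5, 69492292 to 69558104), which encodes occludin, had 19, 33 and 12 counts in control and 29, 25 and 18 counts in USAG-1 libraries, or 0.468 ± 0.194 and 0.540 ± 0.111 CPM, and a log2 fold change of 0.20 with an interval of -0.81 to 1.21, which leaves a moderate change of either sign possible. Its relatives were rarer: MARVELD2 (tricellulin) had 0, 0 and 0 counts in control and 0, 8 and 6 in USAG-1 libraries, and MARVELD3 had 4, 0 and 8 counts in control and 4, 9 and 19 in USAG-1 libraries.

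Among the 7 cytoplasmic scaffold genes, 2 rose and 0 fell, beside 8.95% and 6.91% of all genes tested. CGN (ENSG00000143375; chromosome 1, 151510510 to 151538692) encodes cingulin, which ties ZO proteins to the cytoskeleton and binds RhoA regulators. It stood at 6.08, 4.98 and 6.87 CPM in control and 13.4, 13.6 and 13.7 CPM in USAG-1 libraries, a log2 fold change of 1.19 (SE 0.14, adjusted p = 0.00156), and 1.31 without control replicate 3. Its paralogue CGNL1 (paracingulin; ENSG00000128849; chromosome 15, 57375967 to 57550717) had 105, 108 and 94.0 CPM in control and 100.1, 97.9 and 97.0 CPM in USAG-1 libraries, a log2 fold change of -0.06 with an interval of -0.21 to 0.10. The intervals of the 2 paralogues do not meet. Within libraries, CGN had 5.79, 4.61 and 7.30 counts per 100 counts of CGNL1 in control cells and 13.4, 13.9 and 14.1 in USAG-1-overexpressing cells.

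PALS1 (ENSG00000072415; chromosome 14, 67240713 to 67336061), the scaffold that links Crumbs to PATJ, had 70.1, 73.6 and 65.4 CPM in control and 104, 103 and 102 CPM in USAG-1 libraries, a log2 fold change of 0.57 (SE 0.06, adjusted p = 0.00125). It overlaps ATP6V1D on the opposite strand, which changed by 0.26 (adjusted p = 0.0213), and how the authors' counting treated strand is not given in the sources used here. PATJ, its binding partner, had 17.2, 16.7 and 14.3 CPM in control and 16.8, 17.1 and 16.9 CPM in USAG-1 libraries, a log2 fold change of 0.08 (interval -0.14 to 0.30). TJP1 (ENSG00000104067; chromosome 15, 29699367 to 29968915), which encodes ZO-1, had 166, 168 and 139 CPM in control and 188, 188 and 189 CPM in USAG-1 libraries. The USAG-1 libraries all lay higher, and the log2 fold change of 0.26 (SE 0.08, adjusted p = 0.0601) was past the threshold without control replicate 3 (0.18, adjusted p = 0.00440, edgeR) and with DESeq2 (0.26). TJP3 (ZO-3) had 12, 0 and 18 counts in control and 15, 27 and 8 in USAG-1 libraries (log2 fold change 0.69, interval -1.57 to 2.94).

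**Figure D3:**
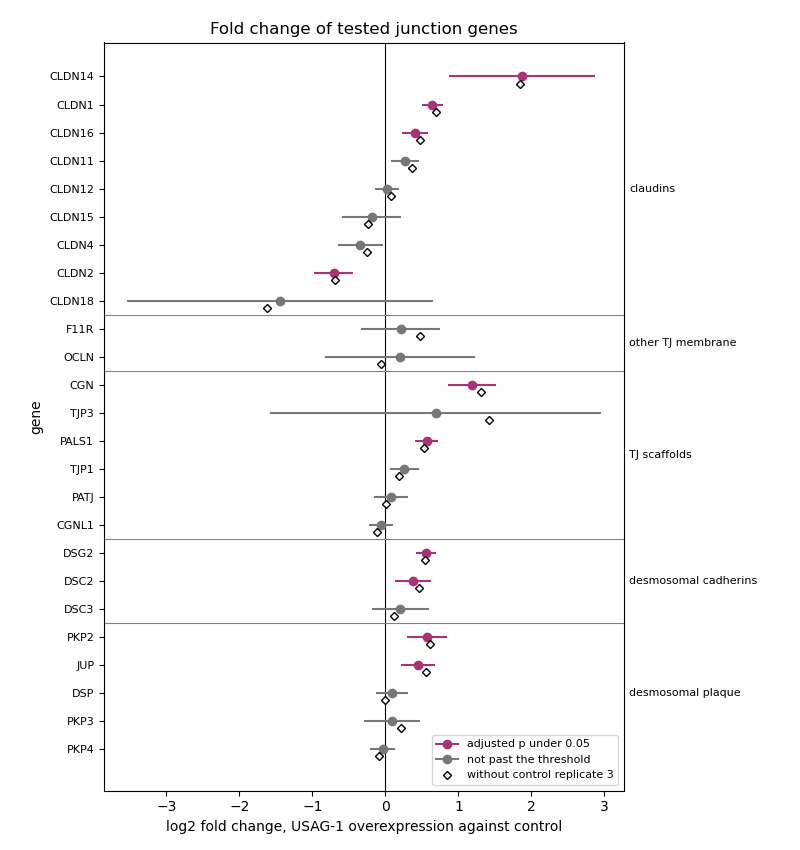
Log2 fold change of 25 of the 26 tested junction genes (circles) with 95% intervals from the quasi-likelihood fit, grouped by role, and the value without control replicate 3 (diamonds). Genes past the threshold are purple; CGN at 1.19 stands to the right of the other scaffolds, CLDN2 at -0.71 to the left of 0, and the intervals of CLDN18, TJP3 and OCLN are wide.

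In desmosomes, 4 of 8 tested genes rose and 0 fell, and the median log2 fold change was 0.29. Among all genes tested, 8.95% were called higher and 6.91% lower. All 8 had a mean of at least 5 CPM, a level at which 21.4% of all genes were called. DSG2 (ENSG00000046604; chromosome 18, 31498177 to 31549008), the desmoglein of simple epithelia, had 148, 151 and 142 CPM in control and 216, 223 and 209 CPM in USAG-1 libraries. The spread within each group was small beside the gap between them, and the means of 147 ± 4.41 and 216 ± 6.73 CPM (SD, n = 3 each) gave a log2 fold change of 0.56 (SE 0.05, adjusted p = 8.38e-04). DSC2 (ENSG00000134755; chromosome 18, 31058840 to 31102522), the desmocollin of the same tissues, had 13.5, 13.4 and 15.9 CPM in control and 19.5, 17.9 and 18.1 CPM in USAG-1 libraries, a log2 fold change of 0.37 (SE 0.10, adjusted p = 0.0390). This call was lost in 9 of 16 alternatives, among them each omission of a library other than control replicate 3, where the log2 fold change lay between 0.33 and 0.40.

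These cadherin genes lie in 1 cluster on chromosome 18, and some of them had hardly any reads. In the order of the table's positions, DSC3 (30989365 to 31042815) had 7.05 ± 1.26 and 8.15 ± 0.917 CPM in control and USAG-1 cells, with overlapping groups and a log2 fold change of 0.21 (interval -0.17 to 0.59). DSC2 follows after 16024 bases. DSC1 and DSG3, desmosomal cadherins of stratified epithelia, come between DSC2 and DSG2 and had 4 and 0 counts over all 6 libraries. DSG2 begins 19474 bases after the end of DSG3. DSG1 and DSG4 were not found by symbol among the deposited genes, so no counts are given for them.

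Of the plaque genes, PKP2 and JUP rose. PKP2 (ENSG00000057294; chromosome 12, 32790745 to 32896777), the plakophilin of simple epithelia and heart, had 16.9, 13.6 and 16.4 CPM in control and 25.5, 22.8 and 21.2 CPM in USAG-1 libraries, a log2 fold change of 0.57 (SE 0.11, adjusted p = 0.0132). Without USAG-1 overexpression replicate 1 or 2 the log2 fold change was 0.50 or 0.58, and the call was lost. JUP (ENSG00000173801; chromosome 17, 41754604 to 41786931), plakoglobin, which serves desmosomes and adherens junctions alike, had 31.4, 34.6 and 40.6 CPM in control and 47.4, 50.3 and 47.3 CPM in USAG-1 libraries, a log2 fold change of 0.44 (SE 0.10, adjusted p = 0.0185). Control replicate 3 was the highest control for JUP, and without it the log2 fold change was 0.56 (adjusted p = 2.93e-04, edgeR), while the call was lost without control replicate 2 (0.43) or any USAG-1 replicate (0.46, 0.42 and 0.46).

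DSP (ENSG00000096696; chromosome 6, 7541617 to 7586714), the plaque protein that holds the intermediate filaments, had 178, 177 and 143 CPM in control and 179, 181 and 172 CPM in USAG-1 libraries. Controls 1 and 2 lay within the USAG-1 range and control replicate 3 below it, and the log2 fold change of 0.09 (SE 0.09, interval -0.11 to 0.30, adjusted p = 0.534) was 0.00 without that library. The armadillo-repeat proteins PKP4 and PKP3 overlapped between groups as well. PKP4 had 104 ± 6.92 and 101 ± 4.33 CPM in control and USAG-1 cells, a log2 fold change of -0.04 (interval -0.20 to 0.12). PKP3 had 5.72 ± 0.825 and 6.07 ± 0.662 CPM, a log2 fold change of 0.09 (interval -0.28 to 0.46), and PKP1, of stratified epithelia, had counts in control replicate 3 alone (7). Measured within libraries, DSG2 had 83.0, 84.9 and 99.6 counts per 100 counts of DSP in control and 121, 123 and 122 in USAG-1 libraries. PKP2 had 15.4, 12.9 and 17.0 counts per 100 counts of PKP4 in control and 25.3, 21.6 and 21.9 in USAG-1 libraries.

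**Figure D4:**
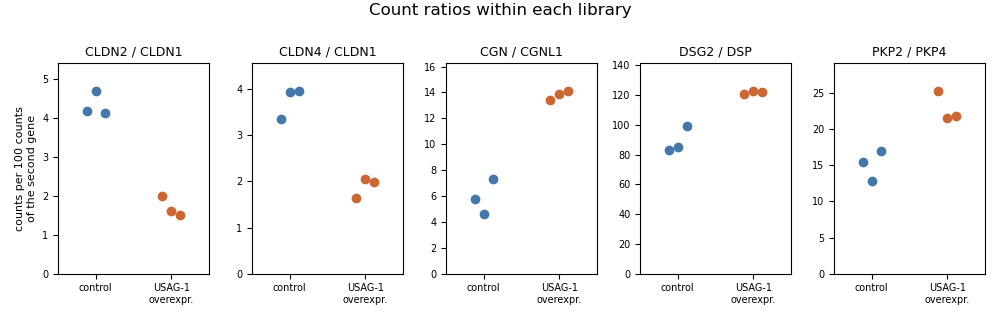
Counts of a junction gene per 100 counts of a second one in the same library, for 5 pairs, with control libraries in blue and USAG-1 libraries in orange. The pairs were chosen after their values were seen and each holds at least 1 called gene, so they describe the calls and do not add to them. The ratio of CLDN2 to CLDN1 averages 4.33 in control and 1.70 in USAG-1 libraries and that of CGN to CGNL1 5.90 and 13.8, and no pair overlaps between groups.

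Genes of neighbouring junction structures were read from lists typed from general knowledge, beside the 15.9% called among all genes. In the adherens junction, the cadherin-catenin belt below the tight junction, 4 of 16 tested genes rose and 3 fell (median log2 fold change 0.07). LIMA1 (EPLIN, which links α-catenin to actin; control and USAG-1 means 103 ± 5.89 and 153 ± 0.171 CPM, log2 fold change 0.57, adjusted p = 0.00109) and PLEKHA7 (which binds p120-catenin; 68.4 ± 3.76 and 97.3 ± 6.39 CPM, log2 fold change 0.51, adjusted p = 0.00324) rose, and the kidney cadherin CDH16 fell (9.90 ± 0.854 and 6.19 ± 0.384 CPM, log2 fold change -0.68, adjusted p = 0.00992). CDH2 (N-cadherin), a classical cadherin, stood at 205 ± 15.7 and 249 ± 7.49 CPM, and it rose by a log2 fold change of 0.28 (adjusted p = 0.0263), a call that was lost in 8 of 16 alternatives. E-cadherin (CDH1), which marks most epithelia, had 0, 7 and 5 counts in control and 5, 9 and 0 in USAG-1 libraries. CTNNB1 and CTNNA1, β- and α-catenin, had log2 fold changes of -0.10 and 0.15 and were not called.

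Among polarity complexes and PDZ scaffolds, 7 of 26 tested genes rose and 1 fell (median log2 fold change 0.21). MAGI1, a membrane-associated scaffold with PDZ domains, rose (18.6 ± 0.628 and 38.1 ± 3.60 CPM, log2 fold change 1.04, adjusted p = 4.36e-04), and AMOT (angiomotin, which binds PATJ; 13.5 ± 0.455 and 21.6 ± 2.21 CPM, log2 fold change 0.68, adjusted p = 0.00350) and the atypical protein kinase C gene PRKCI (79.7 ± 4.14 and 103 ± 2.83 CPM, log2 fold change 0.37, adjusted p = 0.00639), which phosphorylates polarity proteins, rose as well. Of other tight junction associated proteins, 2 of 20 tested genes rose and 1 fell (median log2 fold change 0.07): the adhesion molecule JAM2 fell (5.66 ± 0.113 and 2.30 ± 0.184 CPM, log2 fold change -1.30, adjusted p = 0.00156), and the membrane serine protease PRSS8 (13.5 ± 1.55 and 23.0 ± 1.31 CPM, log2 fold change 0.77, adjusted p = 0.00295) and the tricellular protein ILDR2 (38.7 ± 2.77 and 49.1 ± 3.45 CPM, log2 fold change 0.34, adjusted p = 0.0256) rose. For desmosome partners and cornified envelope linkers, 3 of 10 tested genes rose and 0 fell (median log2 fold change 0.23), with EVPL (38.3 ± 3.97 and 53.1 ± 1.72 CPM, log2 fold change 0.47, adjusted p = 0.00857), PPL (3.66 ± 0.324 and 5.69 ± 0.886 CPM, log2 fold change 0.63, adjusted p = 0.0399) and KAZN (62.8 ± 0.456 and 72.0 ± 0.695 CPM, log2 fold change 0.20, adjusted p = 0.0386) past the threshold. EVPL, PPL and KAZN encode envoplakin, periplakin and kazrin, and periplakin is known to bind both of the others. VIM and KRT8, subunits of the filaments that desmosomes can anchor, had log2 fold changes of -0.01 and 0.03. KRT8 stood at 1080 ± 170 and 1099 ± 26.3 CPM, and control replicate 3 had the most counts of it (54451, against 41542 and 47893 in the other controls). Its value near 0 may therefore depend on that library, and which genes of this list were called without it is not given here.

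Gap junction connexins, which form channels rather than adhesive contacts, gave 0 calls in 6 tested genes by edgeR, DESeq2 and limma-voom alike, and 0 had an unadjusted p under 0.05. GJA1 (connexin 43) had the smallest p (34.9 ± 0.548 and 37.8 ± 3.01 CPM, log2 fold change 0.11, adjusted p = 0.347). Of the transcription factors known to act on epithelial junction genes, 3 of 11 tested genes rose and 0 fell (median log2 fold change 0.29). ELF3 (80.3 ± 2.09 and 111 ± 7.43 CPM, log2 fold change 0.46, adjusted p = 0.00347), KLF4 (11.9 ± 0.864 and 16.2 ± 0.471 CPM, log2 fold change 0.44, adjusted p = 0.0193) and KLF5 (45.8 ± 2.10 and 55.9 ± 4.13 CPM, log2 fold change 0.29, adjusted p = 0.0346), which favour epithelial genes, rose. The repressors of E-cadherin SNAI1, SNAI2, ZEB1, ZEB2 and TWIST1 were not called (adjusted p from 0.0794 to 0.920, edgeR). Of the 11 tested factors, 9 had log2 fold changes above 0 and 2 below, so no contrast between activators and repressors is drawn. OVOL1, OVOL2 and GRHL3 had at most 4 counts in any library. The counts of these lists rested on single libraries as well: without USAG-1 overexpression replicate 2, 2 adherens junction and 0 desmosome partner genes were called, and without control replicate 3 the latter were 10.

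**Figure D5:**
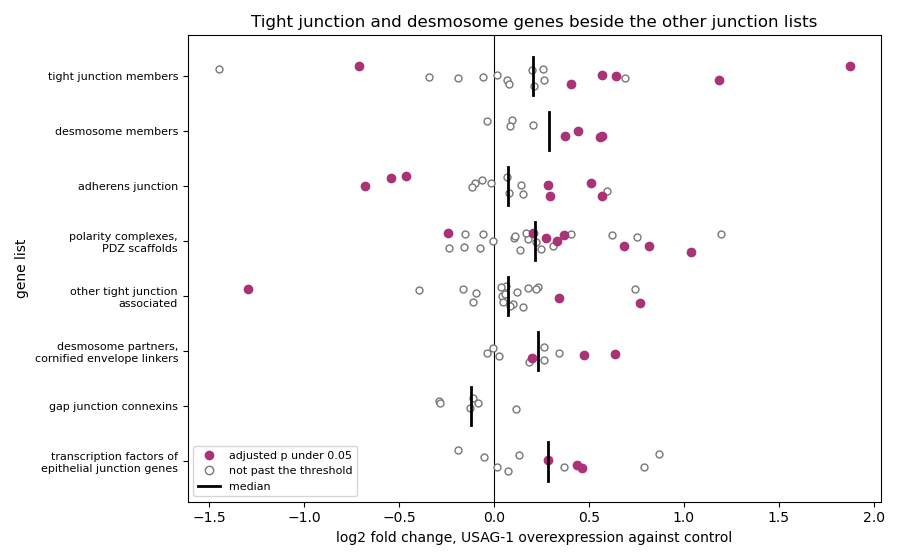
Log2 fold change of each tested gene of the tight junction and desmosome and of 6 other lists, with genes past the threshold filled, others open, and the median of each list as a bar. The medians of the tight junction and desmosome genes are 0.21 and 0.29, and that of the connexins is -0.12 with no filled point.

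Summed over all 42 genes, junction reads made up 2054, 2070.5 and 2146 CPM in the control libraries and 2648, 2721 and 2662 CPM in the USAG-1 libraries. Claudins alone summed to 1041 to 1178 CPM in control and 1475 to 1513 CPM in USAG-1 libraries, and desmosomal cadherins to 164 to 172 and 236 to 249 CPM. Tight junction scaffolds summed to 387 to 431 and 486 to 488 CPM, and desmosomal plaque genes to 303 to 341 and 344 to 366 CPM. In each of these sums every USAG-1 library lay above all controls. The other tight junction membrane proteins summed to 55.8, 88.4 and 115 CPM in control and 84.7, 105 and 110 CPM in USAG-1 libraries, so their groups overlapped. CLDN1 alone, with means of 586 and 914 CPM, made up a large part of the total and of the claudin sum, which therefore do not describe each gene. DSG2, with means of 147 and 216 CPM, likewise made up most of the desmosomal cadherin sum. TJP1, with means of 158 and 189 CPM, was a large part of the scaffold sum. In the plaque sum control replicate 3 was the lowest library and the other controls lay close to the lowest USAG-1 library.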

How the data were processed

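RNA from 6 HK-2 cultures (3 control, 3 USAG-1 overexpression) was sequenced from strand-marked, oligo(dT)-selected libraries by the labels' protocol, whereas the series' design text speaks of rRNA removal. The authors deposited 1 table of whole-number counts per gene, not normalized, although its name speaks of FPKM. The submitters' processing notes name hg38, FastQC and cutadapt 1.9, and the aligner and counter are not given in the sources used here. Here, filterByExpr removed low counts, TMM set the scale, and the groups were tested with edgeR 4.0.16 (quasi-likelihood test, no replicate block, R 4.3.3). p-values were adjusted by Benjamini-Hochberg over 18188 genes, which held 99.9% of the counts, and an adjusted p under 0.05 was called. Standard errors (SE) were computed as the absolute log2 value divided by the root of F, and 95% intervals use the fit's degrees of freedom. Alternatives were other scalings, DESeq2 1.42.0, limma-voom (3.58.1), other filters, a replicate block, an offset for genomic span and each library left out. Totals of 41236194 to 48699471 counts put 3 counts at 0.0607 to 0.0718 CPM. No replicate pair was a copy (chi-square per degree of freedom at least 6.52). The procedure was tested on simulated data.

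The genes and lists were chosen with earlier results of these data known. Every tested junction gene is named except 1 that is not reported here, which enters the counts, sums and medians; of the other lists, up to 3 genes past the threshold with the smallest p, or else the 1 with the smallest p, are named, and CDH2, CDH1, CTNNB1, CTNNA1, VIM, KRT8, the marker genes, the repressors of E-cadherin, OVOL1, OVOL2, GRHL3 and overlapping genes were chosen after their values were seen. Protein and promoter sequences were not used here.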

Additional observations from a re-analysis of the deposited data

How the results depend on the processing

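The call of CGN, CLDN1, CLDN16, DSG2, PALS1 and CLDN2 kept its direction and stayed past the threshold in all 16 alternatives run. With 1 library left out, the number of genes called ranged from 1137 to 5091, that of junction genes called higher from 5 to 11 and their median log2 fold change from 0.16 to 0.26. The count was lowest without USAG-1 overexpression replicate 1 or 2. The same omissions gave 2 to 9 calls in the adherens junction list, 3 to 14 in the polarity list, 2 to 9 among other tight junction associated proteins, 0 to 10 among desmosome partners and 1 to 4 among transcription factors. The median of the junction genes was 0.25 with limma-voom, 0.17 with the offset for genomic span and 0.26 with a replicate block. Over all genes tested, the deviations of same-numbered libraries from their group means were hardly correlated (-0.05 to 0.07, and not above 0.1 in any pair). Whether such libraries shared a batch was not tested. With the block, 2382 genes, 7 junction genes higher and 1 desmosome partner were called, and CLDN14 and DSC2 were not. DESeq2's Wald test called 14 polarity genes and 5 desmosome partners. Without the filter on low counts 4, 4 and 1 genes of the adherens junction, polarity and desmosome partner lists were called. The span offset gave 5 desmosome partners, and with a block 4 adherens junction genes. Among the named genes, directions turned only in junction genes that were not called: with the span offset, alone or with a block, in PATJ (-0.054 and -0.053) and CLDN12 (-0.077 and -0.072), and with a library left out in CLDN12, F11R, OCLN, PKP3 and PKP4 (CLDN12 -0.033 to 0.070; F11R -0.023 to 0.48; OCLN -0.054 to 0.55; PKP4 -0.084 to 0.0040; PKP3 -0.0016 to 0.21). Over 395 values of single named junction genes under the alternatives, 357 kept direction and side of the threshold, 22 lost it, 7 gained it and 9 turned. The cause was not tested. Depth limits CLDN14, CLDN18, OCLN, TJP3 and the 16 untested junction genes, of which none had more than 24 counts in a library.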
